A study of Mus musculus with 8 samples.

Results

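The pyruvate dehydrogenase and citrate cycle genes described here are 32 genes chosen by name for their place in pyruvate oxidation. Each was looked up in the gene symbol column of the authors' table, and each had 1 probe set there, out of 22206 in all. The RNA came from gastrocnemius (GAS) muscle of male C57/Bl6j mice, which received adeno-associated virus (AAV, serotype 1) in the muscle when about 10 weeks old and were 22 weeks old at collection. The virus carried a short hairpin RNA (sh-RNA) under a U6 promoter, directed against MYTHO in one group (MYTHO-KD) and of scramble sequence in the other, so that control muscles had received virus too. By the study's methods scramble virus went into the contralateral leg, but the labels do not say which arrays came from 1 mouse. The U6 promoter is not restricted to muscle fibres, and the hairpin can act in any cell the virus enters. Each group had 4 Clariom S Mouse arrays. The table gives the authors' average and standard deviation (SD) of each group on the log2 scale and no value of single arrays, so that the arrays of a group cannot be shown one by one and whether they overlap between groups cannot be read directly.

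Pyruvate made by glycolysis enters mitochondria through the mitochondrial pyruvate carrier and is turned into acetyl-CoA by the pyruvate dehydrogenase (PDH) complex, the step that commits carbohydrate carbon to oxidation. PDH kinases phosphorylate the complex and switch it off, and PDH phosphatases switch it on again. In skeletal muscle this balance shifts with feeding, fasting and contraction. The citrate cycle oxidizes the acetyl group, and aminotransferases, malate dehydrogenases and malic enzymes link the cycle to the cytosol.

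The target of the hairpin, *D230025D16Rik* (*Mytho*), had an authors' average of 7.71 in MYTHO-KD and 10.02 in scramble muscles (log2), which leaves 20.2% of the scramble signal (adjusted p = 0.0138, limma). Markers of skeletal muscle were high, though they do not show which muscle it was. *Acta1* stood at 19.93 in both groups, the top of the scale, and *Ckm*, the muscle creatine kinase, at 17.80 and 17.85. Averages of the 32 genes lay between 3.84 and 17.65, below that top. Only *Pdk3*, at 4.25 in MYTHO-KD and 3.84 in scramble, was marked by the software as not expressed, in both groups; the other 31 were marked as expressed in both.

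None of the 32 genes passed the threshold of the study's methods, a 2-fold difference with an unadjusted p under 0.05, which 1.12% of all probe sets passed. At 1.5-fold with the same p, *Dlat*, *Got1* and *Me1* passed, 3 of 32, where 5.8% of all probe sets did. After adjustment over the whole array, limma called none of them at 0.05, against 0.275% of all probe sets; the smallest adjusted p was 0.19. Before adjustment, 5 genes were higher in MYTHO-KD with a p under 0.05 (*Dlat*, *Pdhx*, *Idh1*, *Got1* and *Got2*), where 6.48% of all probe sets were, and 2 were lower (*Pdp1* and *Me1*), where 5.52% were. Centred on the median of the 5566 brightest probe sets, 4 were higher and 3 lower, with *Pdhx* leaving and *Suclg2* joining. With that centring, 5.54% of all probe sets were higher and 6.73% lower at that p. Without centring, 11.2% of those brightest probe sets, among which most of these genes lie, were higher and 8.26% lower. Over all 32 genes, 22 were higher, 9 lower and 1 equal, with a median difference of 0.09 (log2, MYTHO-KD minus scramble) beside -0.01 over all probe sets and 0.03 over the brightest ones. Of all probe sets, 46.9% were higher, and of the brightest ones 53%. Genes measured on the same arrays are not independent, so these counts are a description.

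**Figure D1:**
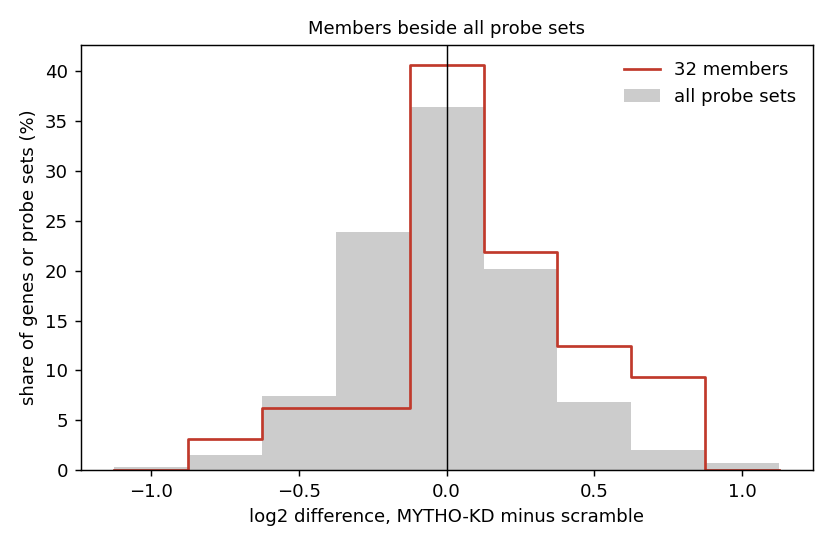
Share of the 32 genes (red line) and of all 22206 probe sets (grey bars) in each bin of the log2 difference between MYTHO-KD and scramble averages; 0.784% of probe sets lie outside the range drawn. The genes fill the same central range as the array. Between 0.625 and 0.875 lie 9.38% of them (*Dlat*, *Idh2* and *Got1*) and 2.00% of probe sets. Between -0.375 and -0.125 lie 6.25% of them (*Idh3a* and *Me3*) and 23.8% of probe sets. In these bins the shares lie furthest apart, and the grey bars also hold dim probe sets.

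Standard errors of the 32 differences lay between 0.149 and 0.407 (log2), with a median of 0.195. For 28 genes the 95% interval lay wholly within 2-fold in either direction, and for 12 within 1.5-fold. The intervals of *Dlat*, *Idh2*, *Got1* and *Me1* reached past 2-fold.

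**Figure D2:**
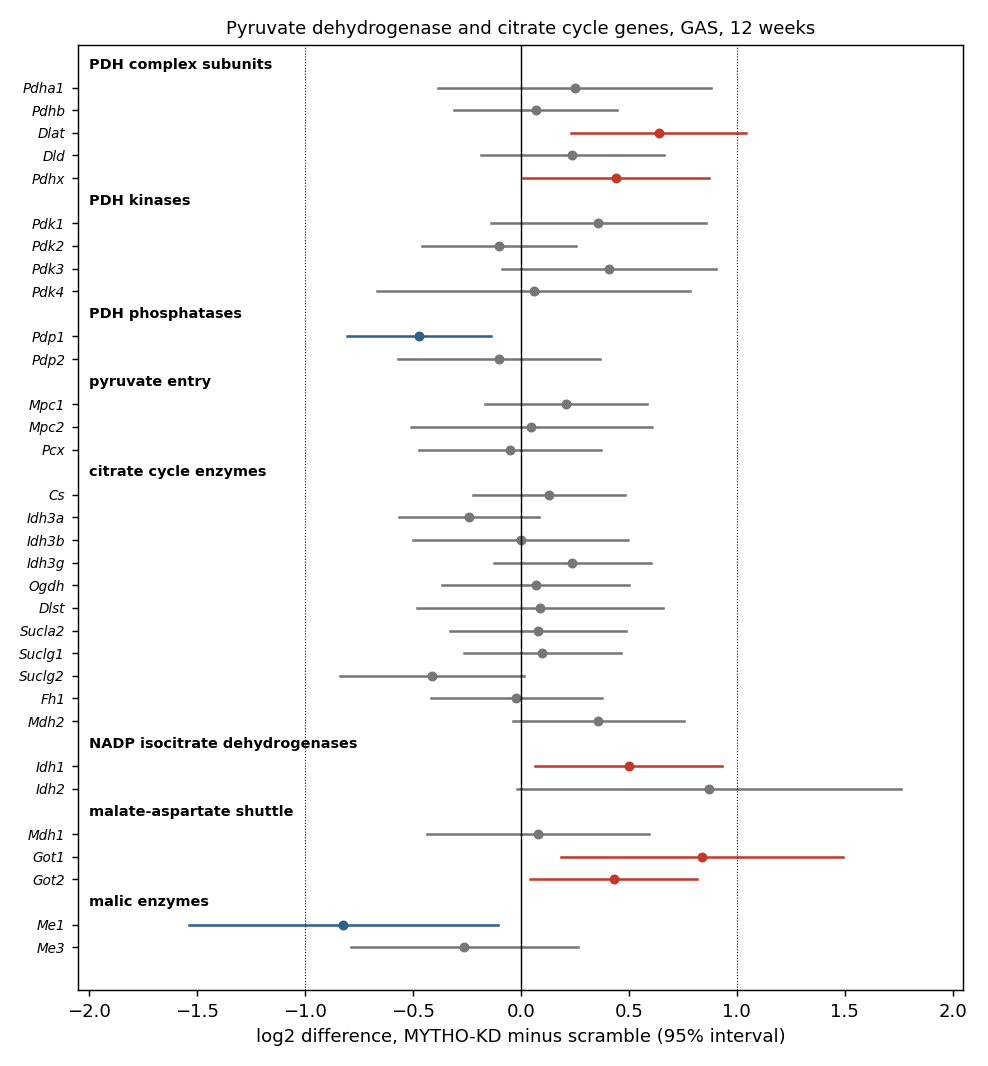
Log2 difference (MYTHO-KD minus scramble) of each gene with its 95% interval from limma's moderated test, ordered by role; red and blue mark an unadjusted p under 0.05 for higher and lower genes, grey the rest, and dotted lines 2-fold. All 5 PDH subunits lie to the right of 0, both PDH phosphatases and both malic enzymes to the left, and the citrate cycle enzymes on either side of it.

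All 5 subunits of the PDH complex had higher averages in MYTHO-KD, by 0.07 to 0.64 (log2), with a median of 0.25. *Dlat*, the E2 subunit that carries the acetyl group on lipoic acid, lies on chromosome 9 from 50634633 to 50659780 (mm10, as are all coordinates of the table). Its average was 15.00 (authors' SD 0.28) in MYTHO-KD and 14.36 (SD 0.19) in scramble. The averages were further apart than the sum of the SDs, and the difference of 0.64 (standard error 0.186, 95% interval 0.24 to 1.05) had the lowest p of the 32 genes, 0.00488, with an adjusted p of 0.190. *Pdhx*, which binds the E3 subunit to the E2 core, lies on chromosome 2 from 103021055 to 103073513 and averaged 10.17 (SD 0.20) against 9.73 (SD 0.33). Its difference of 0.44 (95% interval 0.01 to 0.87, adjusted p = 0.407) was smaller than the sum of its SDs.

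The other subunits had smaller differences. *Pdha1*, the X-linked E1 alpha subunit that the kinases phosphorylate, averaged 12.75 (SD 0.38) in MYTHO-KD and 12.50 (SD 0.60) in scramble, a difference of 0.25 with an interval from -0.38 to 0.88 (adjusted p = 0.805). *Pdhb*, the E1 beta subunit, differed by 0.07 (interval -0.31 to 0.45). *Dld*, the E3 dihydrolipoamide dehydrogenase that other ketoacid dehydrogenases share, differed by 0.24 (interval -0.18 to 0.66). Whether *Dlat* changed by more than these subunits was not tested, since the table does not tell how probe sets vary together across arrays.

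The kinases that switch the complex off showed no difference that passed the test. *Pdk4*, the isoform induced by fasting and fatty acids in muscle, averaged 15.71 (SD 0.70) in MYTHO-KD and 15.65 (SD 0.47) in scramble. Its difference was 0.06, but the arrays of both groups spread widely for this gene and the interval ran from -0.66 to 0.78 (adjusted p = 0.973), which holds differences past 1.5-fold in either direction. *Pdk2*, the kinase isoform found in most tissues, varied little among arrays, with averages of 17.49 (SD 0.07) and 17.59 (SD 0.22), and its difference of -0.10 (interval -0.46 to 0.26) stayed within 1.5-fold. *Pdk1*, known as a target of hypoxia signalling, averaged 11.75 and 11.39 (SDs 0.24 and 0.44; difference 0.36, adjusted p = 0.584). *Pdk3* differed by 0.41 at a signal marked as not expressed, so no level of this kinase can be read from it.

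Of the phosphatases that switch the complex on, *Pdp1*, the calcium-stimulated isoform, had the lower p. It lies on chromosome 4 from 11958184 to 11966452 and averaged 13.26 (SD 0.12) against 13.73 (SD 0.12), the tightest pair of SDs among the genes described in full. The averages were further apart than the sum of the SDs, and the difference was -0.47 (standard error 0.153, 95% interval -0.81 to -0.14), or 72.2% of the scramble signal. Its adjusted p was 0.242. *Pdp2*, the insulin-responsive isoform, differed by -0.10 (averages 6.07 and 6.17, interval -0.57 to 0.37). Besides *Dlat* and *Pdp1*, only *Idh3a* and *Got2* among the 32 genes had averages further apart than the sum of the SDs, 4 genes in all or 12.5%, where 7.99% of all probe sets and 14.9% of the 5566 brightest did.

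**Figure D3:**
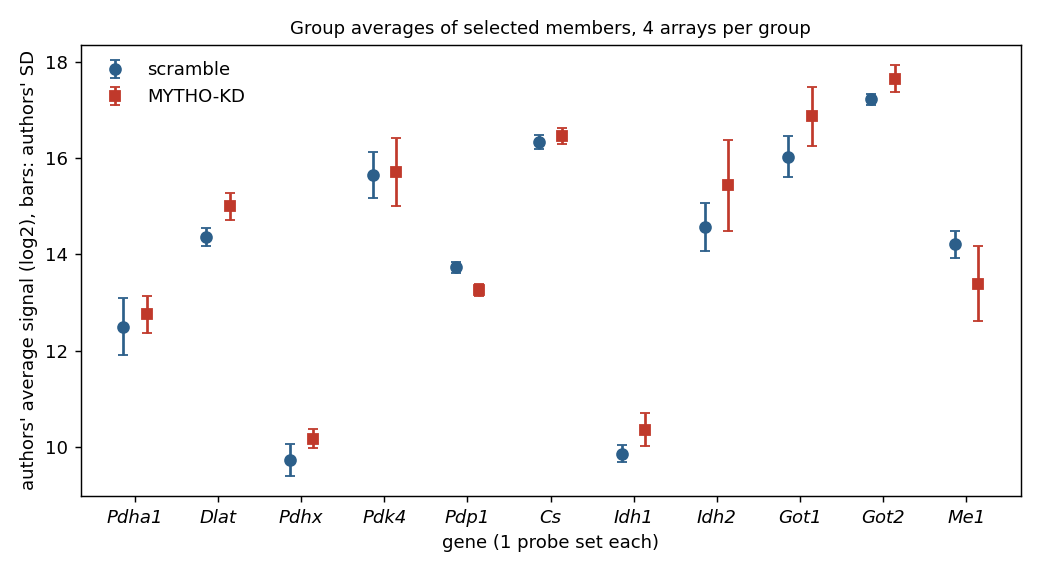
Authors' average signal (log2) of scramble (blue circles) and MYTHO-KD (red squares) for the genes described in full, with the authors' SD over 4 arrays as bars. The bars of *Dlat*, *Pdp1* and *Got2* do not meet, while those of *Pdk4*, *Pdha1* and *Cs* lie over one another and those of *Idh2* and *Me1* are longer in MYTHO-KD; heights of different genes are not comparable on this array.

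Entry of pyruvate into mitochondria showed small differences. *Mpc1* and *Mpc2*, which together form the pyruvate carrier, differed by 0.21 (averages 16.85 and 16.64) and 0.05 (12.19 and 12.14). *Pcx*, pyruvate carboxylase, which refills the cycle with oxaloacetate, differed by -0.05 (8.80 and 8.85). All 3 intervals lay between -0.51 and 0.61.

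Among the 11 enzymes of the cycle, 7 were higher, 3 lower and 1 equal, with differences from -0.41 to 0.36, a median of 0.08 and no p under 0.05. *Cs*, citrate synthase, which is widely used as a marker of mitochondrial content, averaged 16.46 (SD 0.17) in MYTHO-KD and 16.33 (SD 0.14) in scramble. Its difference of 0.13 had an interval from -0.22 to 0.48 (adjusted p = 0.823), so that a difference of 1.5-fold lies outside it. Of the subunits of the NAD-dependent isocitrate dehydrogenase, *Idh3a*, the catalytic one, differed by -0.24 (averages 17.07 and 17.31, SDs 0.07 and 0.11). *Idh3b* differed by 0.00 and *Idh3g* by 0.24. The interval of each holds 0, and whether the subunits differed from one another was not tested. *Idh3a* was apart by more than its SDs, yet its p was 0.132 because the moderated test draws small SDs toward that of the whole array. With no moderation its p was 0.0103 (adjusted p = 0.323), and with the larger of the group SDs in the moderated test 0.191.

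*Ogdh* and *Dlst*, the E1 and E2 subunits of the oxoglutarate dehydrogenase complex, differed by 0.07 and 0.09. Succinyl-CoA ligase is made of an alpha subunit, *Suclg1*, with either an ATP-specific (*Sucla2*) or a GTP-specific (*Suclg2*) beta subunit. *Suclg2* was the lowest of the cycle enzymes (averages 9.26 and 9.67, SDs 0.27 and 0.26, difference -0.41, adjusted p = 0.430), and its interval ran from -0.83 to 0.01. *Sucla2* differed by 0.08 and *Suclg1* by 0.10. *Fh1*, fumarate hydratase, differed by -0.02 (13.28 and 13.30). *Mdh2*, the mitochondrial malate dehydrogenase, was the highest of the cycle enzymes (16.40 and 16.04, SDs 0.24 and 0.21, difference 0.36, adjusted p = 0.460).

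The malate-aspartate shuttle carries reducing equivalents between cytosol and mitochondria. *Got1*, its cytosolic aspartate aminotransferase, lies on chromosome 19 from 43499752 to 43524605. It averaged 16.87 (SD 0.61) in MYTHO-KD and 16.03 (SD 0.42) in scramble, a difference of 0.84 (standard error 0.299, 95% interval 0.19 to 1.49), or 179% of the scramble signal, with an adjusted p of 0.289. Its mitochondrial partner *Got2*, on chromosome 8 from 95864134 to 95888547, averaged 17.65 (SD 0.28) and 17.22 (SD 0.12), a difference of 0.43 (interval 0.04 to 0.82, adjusted p = 0.364). The third member of the shuttle, cytosolic *Mdh1*, differed by 0.08 (16.29 and 16.21). SDs of all 3 shuttle genes were larger in MYTHO-KD than in scramble muscles. Over the 32 genes, 16 were larger, 15 smaller and 1 equal, and over all probe sets 48.1% were larger.

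Of the NADP-dependent isocitrate dehydrogenases, which make NADPH, *Idh1* had a p under 0.05 before adjustment and *Idh2* did not. *Idh2*, the mitochondrial enzyme, is on chromosome 7 from 80094846 to 80115392 and had the largest difference of the 32 genes, 0.87, from averages of 15.43 (SD 0.95) and 14.56 (SD 0.50). Its standard error, 0.407, was also the largest of the 32, with an interval from -0.02 to 1.76, and its p before adjustment was 0.0542 (adjusted p = 0.428). *Idh1*, the cytosolic enzyme, is on chromosome 1 from 65158616 to 65186479. With averages of 10.36 (SD 0.35) and 9.86 (SD 0.18) its difference was 0.50 (interval 0.07 to 0.93, adjusted p = 0.343).

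Of the malic enzymes, which turn malate into pyruvate and also make NADPH, *Me1* had a p under 0.05 before adjustment and *Me3* did not. *Me1*, the cytosolic enzyme, lies on chromosome 9 from 86581363 to 86695914 and had the lowest difference of the 32 genes, with averages of 13.39 (SD 0.78) and 14.21 (SD 0.28). Its difference of -0.82 (standard error 0.327, interval -1.53 to -0.11, adjusted p = 0.344) leaves 56.6% of the scramble signal. *Me3*, a mitochondrial form, differed by -0.26 (11.72 and 11.98, interval -0.79 to 0.27). The averages of *Idh1* and *Me1*, cytosolic sources of the same cofactor, differed in opposite directions, neither with an adjusted p under 0.05. That contrast was not itself tested.

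The stretch of 100 bases just before the annotated start of transcription is shown for the genes with the largest differences in either direction (*Idh2*, *Got1* and *Me1*) and for the PDH subunits with the lowest p, with CCAAT boxes and GC boxes in capitals (5′ to 3′ in the direction of the gene, RefSeq on GRCm38.p6, the build also called mm10). *Idh2* is at chr7:80115351-80115450, *Got1* at chr19:43524606-43524705, *Me1* at chr9:86695915-86696014, *Dlat* at chr9:50659781-50659880 and *Pdhx* at chr2:103073514-103073613, all on the minus strand.
Idh2: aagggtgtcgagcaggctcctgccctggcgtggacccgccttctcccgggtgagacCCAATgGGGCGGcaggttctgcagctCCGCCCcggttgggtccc
Got1: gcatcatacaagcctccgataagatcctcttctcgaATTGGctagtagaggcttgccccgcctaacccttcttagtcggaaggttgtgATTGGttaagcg
Me1: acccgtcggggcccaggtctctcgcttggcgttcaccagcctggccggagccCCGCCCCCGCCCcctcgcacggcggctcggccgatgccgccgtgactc
Dlat: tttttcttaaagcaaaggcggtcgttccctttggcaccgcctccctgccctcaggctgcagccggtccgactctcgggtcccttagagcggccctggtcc
Pdhx: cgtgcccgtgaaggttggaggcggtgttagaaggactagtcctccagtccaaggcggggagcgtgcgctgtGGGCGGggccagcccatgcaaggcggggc

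The *Idh2* stretch holds a CCAAT box beside a GC box and a further GC box on the opposite strand, and its start in RefSeq lay 42 bases from that in the table. The *Got1* stretch holds 2 CCAAT boxes, both read on the opposite strand, and the *Me1* stretch 2 GC boxes side by side, also on that strand. *Pdhx* holds a GC box, and the *Dlat* stretch holds neither motif. Such windows were matched for 30 of the 32 genes, not for *Pdp1* and *Idh3a*, and for *Sucla2* the nearest one began 27467 bases from the start given in the table. Short motifs were searched on both strands of the 250 bases before the start. The window of each of the 30 genes was the one nearest to its start in the table, and that of any other gene the first listed. The shares of the 30 and of all windows were therefore not built in the same way. CCAAT was in 18 of the 30 windows and in 34.5% of 27025 windows of mouse genes, and GGGCGG in 19 of 30 and in 32.9%; these letters were chosen after the windows had been seen. AAGGTCA, the half-site of estrogen-related receptors, was in 1 window, that of *Got1*, and in 4.05% of all windows. TGACNNNGC, the core of the antioxidant response element, was in 3 windows (*Dlst*, *Idh3g* and *Sucla2*) and in 10.1% of all. Neither GTAAACA, bound by FoxO factors, nor GCGCATGCG, bound by NRF1, was in any of the 30, and they were in 3.09% and 1.49% of all windows. A match is a run of letters and not a measured binding site.

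Other genes of the pathway were taken from lists of 41 genes, each with a probe set. Of 8 further genes of the cycle, 4 were higher and 4 lower (median 0.04). *Sdhb*, the iron-sulfur subunit of succinate dehydrogenase, was higher by 0.49 (15.87 and 15.38, adjusted p = 0.386) and was the one with a p under 0.05 before adjustment. *Nnt*, the mitochondrial transhydrogenase, was the lowest at -0.37, with wide SDs of 0.77 and 1.08. Of 6 genes of lipoic acid and thiamine supply, a list that also holds *Pdpr*, the regulatory subunit of PDH phosphatase, 4 were higher and 2 lower. *Lipt2*, which starts lipoylation, was higher by 0.52 (8.22 and 7.70, adjusted p = 0.323). *Pdpr* differed by 0.52 (12.04 and 11.52, adjusted p = 0.428).

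Of 15 genes of anaplerosis, citrate export and amino-group exchange, 9 were higher, 5 lower and 1 equal (median 0.19). *Gpt*, the cytosolic alanine aminotransferase that trades pyruvate for alanine, was the highest at 0.55 (7.94 and 7.39, adjusted p = 0.307). *Slc25a13*, a mitochondrial aspartate-glutamate carrier of the malate-aspartate shuttle, differed by 0.50 (6.13 and 5.63, adjusted p = 0.360), while *Slc25a12*, the other such carrier, stood at 17.29 in both groups. *Pcca*, a subunit of propionyl-CoA carboxylase, was the lowest at -0.37. Of 12 regulators of *Pdk4* and genes of the fasting and fatty acid programme, 9 were higher and 3 lower (median 0.15) and none had a p under 0.05. *Ppara*, a nuclear receptor for fatty acids that acts on *Pdk4*, was the highest at 0.63 with an interval from -0.30 to 1.56. *Angptl4*, a secreted lipase inhibitor that the same receptors control, was the lowest at -0.38.

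**Figure D4:**
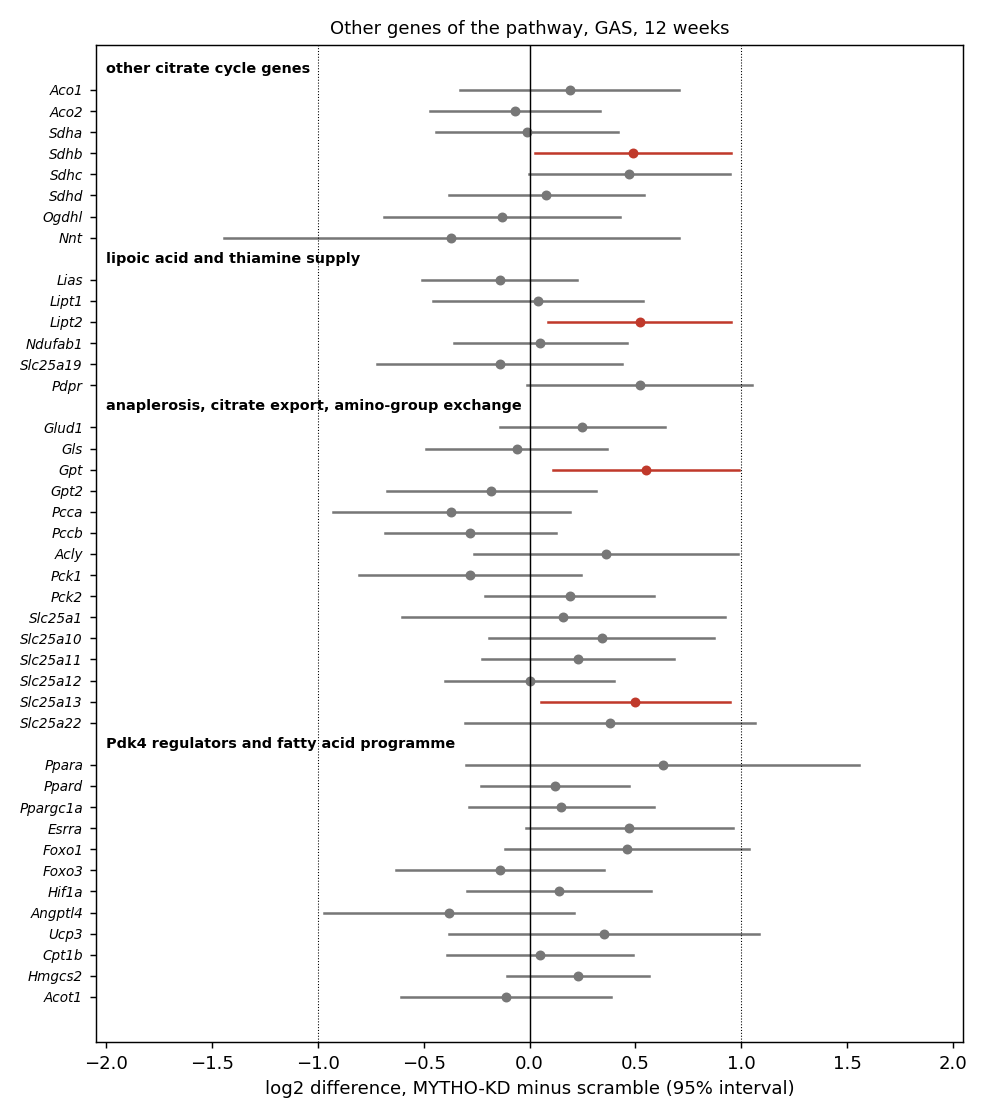
Log2 difference (MYTHO-KD minus scramble) with its 95% interval for the 41 other genes of the pathway, by list; red and blue mark an unadjusted p under 0.05 for higher and lower genes, grey the rest, and dotted lines 2-fold. The intervals of *Sdhb*, *Lipt2*, *Gpt* and *Slc25a13* lie above 0, and those of all regulators of *Pdk4* span 0.

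Markers of other cells also differed between these muscles, and in whole muscle a change in the number of cells of a type and a change in RNA per cell cannot be told apart. All 6 macrophage markers were higher, with *Cd68* at 9.43 against 6.90 (adjusted p = 0.0182, limma). The log2 of their summed signal was 12.10 in MYTHO-KD and 10.78 in scramble. Such sums weigh the brightest probe sets most, here *Lyz2* (11.11 and 9.17) and *Mrc1* (9.93 and 9.56), although signals of different genes are not comparable on this array. All 5 fibroblast markers were higher too, with a median difference of 0.82, led by *Lum* at 11.85 against 10.36 (adjusted p = 0.0443, limma) and *Col3a1* at 11.19 against 9.76 (adjusted p = 0.102); the log2 of their sum, 16.94 and 16.62, is mostly *Dcn* (16.86 and 16.58). The 5 endothelial markers were higher as well (median 0.53, log2 of the sum 14.37 and 13.86). Of 8 adipocyte markers 7 were lower, with a median difference of -0.31 over the list and no p under 0.05. Their log2 sums, 14.47 and 14.45, are mostly *Fabp4* (14.42 and 14.38), the marker that was not lower. The SDs of *Adipoq* were 2.13 and 2.22, so its arrays differed widely within each group. No probe set of the array had a log2 average under 3.18, so an average above 0 does not by itself show that a marker was expressed. The part of these cells in the values of *Me1*, *Idh1* and the other genes, all of which non-muscle cells also express, was not tested. Of the myosins, *Myh4* stood at 19.93 in both groups, at the top of the scale, where a difference cannot be seen. *Myh1* differed by 0.59 (18.17 and 17.58, adjusted p = 0.230). *Myh2* differed by 0.41 (19.91 and 19.50, adjusted p = 0.315), close to that top. *Myh1* and *Myh2* both had a p under 0.05 before adjustment in limma's moderated test. For each of them the averages were further apart than the sum of the SDs. *Myh7*, the slow myosin, averaged 11.67 and 12.40 with SDs of 3.26 and 1.30, so that its signal varied widely among arrays. The part of fibre type in the values of the 32 genes was not tested.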

How the data were processed

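Total RNA of GAS muscle was hybridized to Clariom S Mouse arrays. By the paper's methods, the Transcriptome Analysis Console was run at its defaults, with SST-RMA as the normalization; the submitters' processing notes name Affymetrix Expression Console and RMA. This rescales signals, which affects the size of differences. The deposited table (mm10 annotation, decimal commas) holds other values: the authors' average log2 signal and its SD per group, flags of expression, and fold changes and p-values of the authors' own comparison, which were not used. It has 0 unmatched columns of single arrays. The kind of average is not stated; if it is not a plain mean, p-values given here may be too low.

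The 32 genes and all gene lists were chosen with earlier results of these data known. From averages and SDs, the variances of both groups were averaged (6 residual degrees of freedom), and squeezeVar of limma 3.58.1 in R 4.3.3 moderated them (prior SD 0.284, prior degrees of freedom 5.85). Tests were two-sided with Benjamini-Hochberg adjustment over 22206 probe sets, and the code was tested on simulated data. No probe set was filtered out. Genes with an unadjusted p under 0.05 or a log2 difference of 0.5 or more either way, and *Pdha1*, *Cs* and *Pdk4*, were described in full; of the pathway lists, genes with a p under 0.05 and the highest and lowest were named, and *Pdpr*, *Slc25a12* and the marker genes were added after their values were seen. A further pathway gene, outside the 41 counted, is not reported here. Motif searches used the RefSeq promoter windows. Arrays have no sequencing depth; their number limits the precision. Labels number the arrays of a group but do not say that they came from separate mice, so p-values set each difference against the spread among these samples. The groups were treated as unpaired, so any pairing of legs within a mouse is left out of the standard errors, intervals and p-values.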

Additional observations from a re-analysis of the deposited data

How the results depend on the processing

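No paired analysis was possible because the table holds group averages and no values of single arrays; for the same reason no array was left out in turn. Of the planned settings, the counts of genes at an unadjusted p under 0.05 (5 higher, 2 lower) moved most with the variance: 3 were higher and 2 lower with no moderation, and 2 higher and 1 lower with the larger of the group SDs in place of the pooled one. With no moderation *Pdhx*, *Got1* and *Me1* lost the call and *Idh3a* gained it. With the larger SD *Pdhx*, *Idh1*, *Got2* and *Me1* lost the call, while *Dlat*, *Got1* and *Pdp1* kept it. *Dlat* and *Pdp1* were under 0.05 in every setting run, with p up to 0.0130 and 0.0203. At 1.5-fold in place of 2-fold, 3 genes passed with an unadjusted p under 0.05. No gene had an adjusted p under 0.05 in any setting, and the lowest was that of *Dlat* with a trend and robust fitting, 0.0892. Under both centrings, both filters on dim probe sets and the trend, the counts stayed within 1.5 times, and no gene called at that p changed direction in any setting. The mean over all probe sets of a gene equals its single probe set here. Over all probe sets, limma's count at an adjusted p under 0.05 was 61, and it was 2 with no moderation, 3 with the larger SD, and 188 with robust fitting along a trend. Over all probe sets, counts at an unadjusted p under 0.05 were 1439 higher and 1225 lower, and 899 and 688 with the larger SD. With no moderation they were 1173 and 1155, or 5.29% and 5.21%.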
